A study of Mus musculus with 6 samples.

Results

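Complement components and receptors were examined as a set of 9 genes of 54532 in the count table. The set was chosen by name, with earlier results of these data known. It held the C1q chains C1qa, C1qb and C1qc and the central components C3 and C4b. The other members were the alternative pathway proteins Cfb and Cfp and the anaphylatoxin receptors C3ar1 and C5ar1. The data were 6 RNA-seq libraries of cardiac macrophages, 3 from ITGA5 fl/fl mice and 3 from Myα5KO mice, and addressed how macrophages in the infarct change when they lose the integrin α5 chain. All mice were 12 weeks old, of strain C57BL/6, carried the floxed ITGA5 alleles in both groups and underwent permanent occlusion of the left anterior descending coronary artery without reperfusion, with cells taken at day 7. Myα5KO mice also carried Cre under the LyzM promoter, which is active in macrophages and in other myeloid cells such as monocytes and granulocytes. The ITGA5 fl/fl controls were littermates without a named Cre. Loss of Itga5 and the presence of Cre therefore cannot be told apart in these libraries. Cells were the Ly6G- CD11b+ fraction of digested tissue of individual hearts, so that any CD11b+ leukocyte without Ly6G could pass the selection.

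Complement is a cascade of plasma proteins that tag microbes and damaged cells. C1q, assembled from its A, B and C chains, starts the classical pathway, which cleaves C4 and then C3, while factor B and properdin build and stabilize the C3-cleaving enzyme of the alternative pathway. The fragments C3a and C5a attract and activate leukocytes through C3ar1 and C5ar1, and tissue macrophages are a major source of C1q.

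All 9 genes passed the filter on low counts and entered a fit of 14522 genes. C4b and C5ar1 were lower in Myα5KO macrophages, whereas the C1q chains, C3, Cfb, Cfp and C3ar1 were not called in either direction. Thus 2 of 9 members were called lower, beside 5.19% of all genes tested, and 0 of 9 were called higher by the edgeR test, beside 3.56% (8.75% in either direction). C3 and Cfb, the 2 members with positive changes at an unadjusted p under 0.05, did not pass the adjustment over all genes. DESeq2, run as an alternative, also called 0 members higher and 2 lower. The median log2 fold change of the 9 members was -0.04, beside 0.01 for all genes tested. The values of 4 members did not overlap between groups (C4b, C5ar1, Cfb and C3ar1), beside 28.6% of all genes tested.

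The C1q genes lie side by side on the minus strand of chromosome 4 (build GRCm38), within 18675 bases, in the order C1qb (chr4:136880129-136886187), C1qc (chr4:136889804-136893065) and C1qa (chr4:136895917-136898803). Gaps of 3616 bases between C1qb and C1qc and of 2851 bases between C1qc and C1qa separate them. Of the 9 members, 6 were matched to the RefSeq promoter table (build GRCm38.p6). The sequences upstream of C1qb and C1qc are shown because these neighboring genes were among the most abundant of the libraries, and that of C5ar1 because it fell in Myα5KO cells. All 3 are written 5′ to 3′ on the minus strand, outside annotated exons. For C1qb this is the whole window of 250 bases before the RefSeq start (chr4:136886201-136886450), for C1qc the 99 exon-free bases of the window (chr4:136893066-136893164), and for C5ar1 the 174 bases next to the RefSeq start (chr7:16259339-16259512), which lie in the first intron of the longer GENCODE transcripts. Capitals mark the core letters GAGGAA bound by PU.1, a transcription factor of myeloid cells, on either strand.
C1qb: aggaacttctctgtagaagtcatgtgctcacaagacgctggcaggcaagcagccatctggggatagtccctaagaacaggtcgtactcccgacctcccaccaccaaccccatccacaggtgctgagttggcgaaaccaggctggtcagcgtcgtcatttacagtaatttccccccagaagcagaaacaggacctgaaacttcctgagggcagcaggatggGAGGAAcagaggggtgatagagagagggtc
C1qc: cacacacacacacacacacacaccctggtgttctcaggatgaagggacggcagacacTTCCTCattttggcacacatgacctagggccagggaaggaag
C5ar1: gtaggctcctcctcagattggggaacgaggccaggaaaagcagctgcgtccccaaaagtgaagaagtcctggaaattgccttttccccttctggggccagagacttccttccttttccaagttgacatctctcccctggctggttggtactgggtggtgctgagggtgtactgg
GAGGAA lay on the coding strand 30 to 25 bases before the RefSeq start of C1qb. In C1qc it lay on the opposite strand, 193 to 188 bases before the start, and so reads TTCCTC in the printed run. These letters occurred on either strand in 23.3% of the 32851 promoter windows of that length, so a match is common. The interferon-stimulated response element (2.98% of windows) was in none of the 6 windows. The NF-kappaB motif (4.11% of windows) was in that of C3ar1 only, on the opposite strand 14 to 5 bases before the start. A match describes letters and not binding.

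As a check of the labels, Itga5 was counted at 653, 568 and 600 CPM (counts as scaled by library total and TMM factor) in the ITGA5 fl/fl libraries and at 49.99, 48.96 and 47.1 CPM in the Myα5KO libraries (log2 fold change -3.64, edgeR adjusted p = 4.42e-12). Total counts ranged from 15424451 to 18419287 per library. The macrophage markers Csf1r (1995 to 2301 CPM), Adgre1, the F4/80 antigen (1209 to 1394 CPM), and Cd68 (831 to 935 CPM) were high in every library, which matches the labelled cell type. None of these 3 was called changed, whereas Cd14 was called lower and Cx3cr1 and Fcgr1 higher in the same list of 8 markers. The labels of both groups give the same tissue and time.

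The 3 chains of C1q were among the most highly expressed genes of infarct macrophages, and they did not differ between genotypes beyond the spread of the libraries. On the FPKM scale, which is per gene length, C1qb ranked 10 to 12 among all genes across the 6 libraries, C1qa 12 to 14 and C1qc 24 to 26. For comparison, the genes on either side of the cluster were nearly silent, with 144 counts for Ephb2 and 6 for Epha8 summed over all libraries, against 294285 for C1qb.

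C1qa, which encodes the A chain, was counted at 2499, 2689 and 2615 CPM in ITGA5 fl/fl libraries and at 2232, 2533 and 2742 CPM in Myα5KO libraries. The Myα5KO values lay on both sides of the ITGA5 fl/fl values, and the log2 fold change was -0.06 (95% interval -0.24 to 0.13, edgeR adjusted p = 0.747).
C1qb, the B chain, was counted at 2768, 2843 and 2840 CPM against 2564, 2738 and 2911 CPM. The highest and the lowest library were both Myα5KO, and the log2 fold change was -0.04 (95% interval -0.20 to 0.12, adjusted p = 0.792).
C1qc, the C chain, was counted at 2265, 2359 and 2241 CPM against 2046, 2075 and 2254 CPM. Here 2 Myα5KO libraries were below all ITGA5 fl/fl libraries and 1 was within their range, with a log2 fold change of -0.11 (95% interval -0.26 to 0.05, adjusted p = 0.415).
The intervals thus leave room for a change of the C chain down to -0.26 on the log2 scale, and larger decreases of any chain lie outside them. The signs of C1qa and C1qb turned positive with library totals in place of TMM scaling (0.025 and 0.040), and that of C1qa also without Myα5KO replicate 1 (0.015), so no direction can be given for either.

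The balance among the chains does not depend on scaling between libraries. C1qa made up 33.7% ± 0.49 (SD, n = 3) of the summed C1q counts for ITGA5 fl/fl and 33.9% ± 1.13 for Myα5KO macrophages. C1qb made up 36.6% ± 0.46 and 37.2% ± 0.34, and C1qc 29.7% ± 0.51 and 28.9% ± 0.89. For each chain the libraries of the groups overlapped (two-sided exact permutation tests, p = 0.8, 0.2 and 0.3, adjusted over 3 tests 0.8, 0.45 and 0.45, where 0.1 is the smallest p that 3 against 3 libraries can give). Together the C1q genes took 0.748% ± 0.0216 of all counts for ITGA5 fl/fl and 0.756% ± 0.0562 for Myα5KO macrophages, and all 9 members took 0.956% ± 0.0278 and 0.959% ± 0.0449. Most counts of the set were therefore C1q counts in both genotypes.

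**Figure D1:**
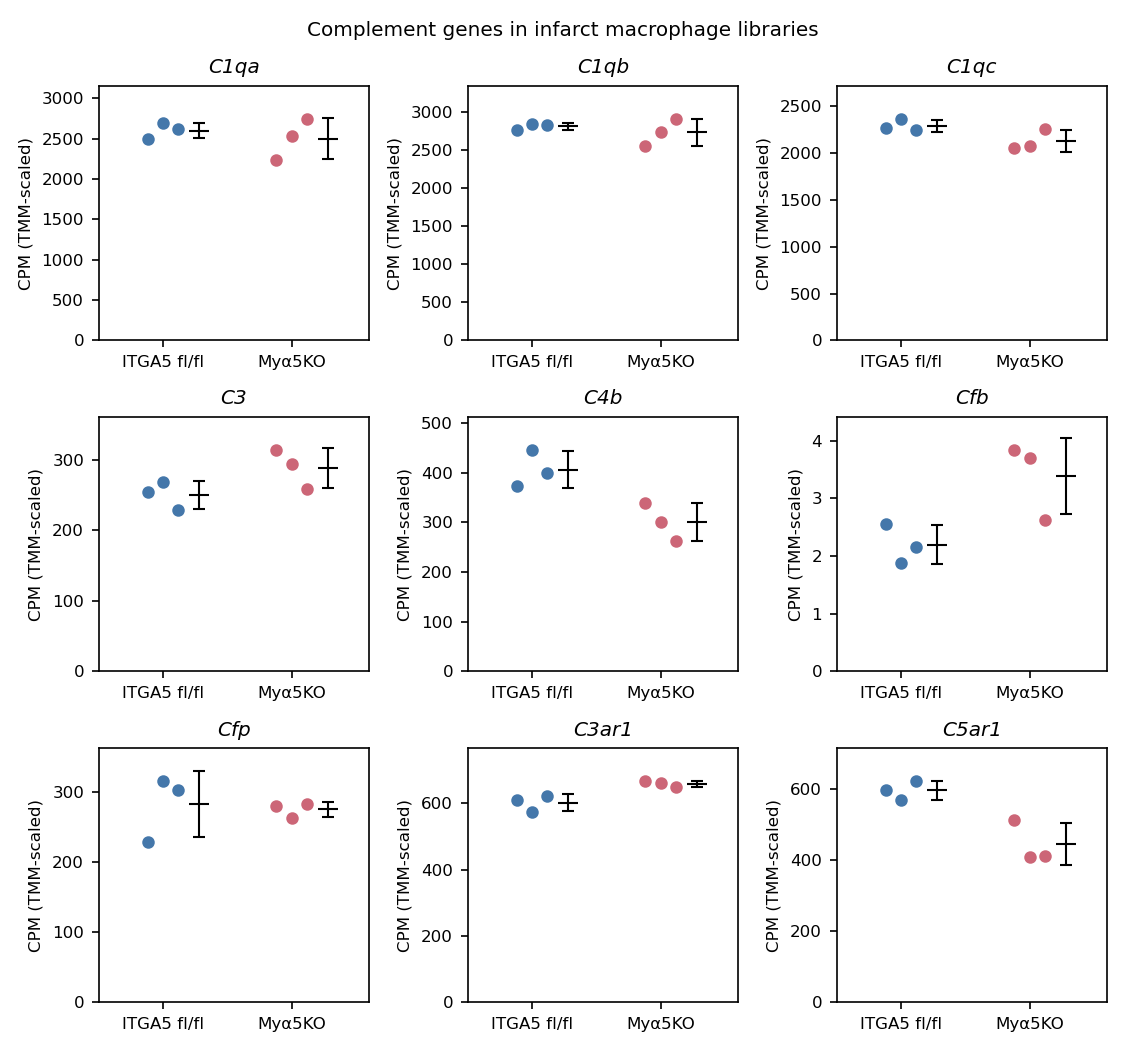
TMM-scaled CPM of the 9 complement genes (y axis, from 0, own scale per panel) in the 3 ITGA5 fl/fl libraries (blue) and the 3 Myα5KO libraries (red). Points are libraries in replicate order, and the black bar beside them is the mean with its SD. C4b and C5ar1 are lower in all 3 Myα5KO libraries, and the C1q chains overlap between the groups.

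C4b, the main gene for complement C4 (chr17:34728380-34743882, minus strand), the substrate of activated C1 in the classical pathway, was lower in Myα5KO macrophages. It was counted at 372, 445 and 400 CPM in ITGA5 fl/fl libraries and at 339, 300.0 and 263 CPM in Myα5KO libraries. Every Myα5KO library was below every ITGA5 fl/fl library, although ITGA5 fl/fl replicate 1 and Myα5KO replicate 1 lay close together. Group means were 406 ± 36.8 and 301 ± 37.9 CPM (SD, n = 3), a log2 fold change of -0.43 (SE 0.09, 95% interval -0.63 to -0.23, edgeR adjusted p = 0.0118). The change kept its sign without any 1 library (-0.53 to -0.34) and missed the threshold without ITGA5 fl/fl replicate 2 (-0.36, adjusted p = 0.0667) and in limma fits of log2(FPKM + 1) and log2(FPKM + 0.1) (-0.43 and -0.44, adjusted p = 0.0725 and 0.074).

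C4b has a near-identical neighbor, C4a: 35.2% of the words of 50 bases in C4b transcripts also occur in C4a, and 8.26% of words of 150 bases. How the authors treated reads that fit both genes is not given in the sources used here. C4a itself held 21, 24 and 14 reads in the controls and 26, 20 and 14 reads in the Myα5KO libraries, against 5008 to 7579 counts of C4b, and summing the 2 genes left the C4b call in place. In bulk libraries such as these, fewer cells of a type that carries a transcript and less of the transcript per cell cannot be told apart. Genes of fibroblasts, which also make C4, moved in the same direction. The summed CPM of 8 fibroblast markers was 1899, 1620 and 1700 in ITGA5 fl/fl libraries, against 1579, 1427 and 1211 for the knockouts. All 8 changes were negative and 1 was called lower (Postn), beside 5.19% of all genes tested. The marker sums of the groups did not overlap (two-sided exact permutation test, p = 0.1, the smallest possible, adjusted over 10 lists 0.167). The part of these markers in the C4b result was not tested.

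C3 (chr17:57203970-57228136, minus strand), on which all complement pathways converge, was not called changed. It was counted at 254, 269 and 229 CPM in ITGA5 fl/fl libraries and at 314, 294 and 259 CPM in Myα5KO libraries, so that Myα5KO replicate 3 lay within the ITGA5 fl/fl range and the other two above it. The log2 fold change was 0.21 (SE 0.08, 95% interval 0.03 to 0.38, edgeR unadjusted p = 0.0285, adjusted p = 0.156). C3 passed the threshold with library totals in place of TMM scaling (0.29, adjusted p = 0.0417) and without Myα5KO replicate 3 (0.28, adjusted p = 0.0396). C3 and C4b therefore changed places in the order of levels per length. The ratio of C3 to C4b FPKM was 0.756, 0.669 and 0.634 in ITGA5 fl/fl libraries, against 1.03, 1.09 and 1.09 in the Myα5KO libraries, below 1 in every control and above 1 in every knockout. The crossing of 1 holds only per gene length. The ratio of counts was 0.683, 0.604 and 0.573 against 0.926, 0.981 and 0.982, below 1 in every library. This ratio and the receptor ratio given further on were picked among 6 pairs after their values were seen, and are given as a description.

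Cfb, factor B, the catalytic subunit of the alternative pathway convertase (chr17:34856374-34862518, minus strand), had the fewest counts of the members. Its counts were 38, 32 and 38 for the controls and 72, 69 and 50 for the Myα5KO libraries, or 2.55, 1.88 and 2.16 against 3.83, 3.69 and 2.63 CPM. All Myα5KO values were above the ITGA5 fl/fl values, but the log2 fold change of 0.63 (SE 0.22, 95% interval 0.14 to 1.11, edgeR unadjusted p = 0.0149) had an adjusted p of 0.107. The level of Cfb is uncertain because Gm20547, a protein-coding model on the same strand, contains 81.4% of the 50-base words of Cfb transcripts and was itself listed at 0 counts in every library. Cfp, properdin (chrX:20925454-20931555, minus strand), was counted at 229, 316 and 304 CPM against 280.3, 264 and 284 CPM. Its Myα5KO values lay inside the wider ITGA5 fl/fl range (log2 fold change -0.04, 95% interval -0.25 to 0.18, adjusted p = 0.867), and its sign turned with library totals (0.044) and without ITGA5 fl/fl replicate 2 (0.050) or 3 (0.016).

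Of the receptors, C5ar1 was called lower in Myα5KO macrophages and C3ar1 was not called. C5ar1, the receptor of C5a (chr7:16246743-16259540, minus strand), was counted at 598, 568 and 621 CPM in ITGA5 fl/fl libraries and at 512, 409 and 411 CPM in Myα5KO libraries. All Myα5KO libraries were below all ITGA5 fl/fl libraries, and Myα5KO replicate 1 was nearest to them. The means were 596 ± 26.8 and 444 ± 59.0 CPM (SD, n = 3), a log2 fold change of -0.42 (SE 0.09, 95% interval -0.61 to -0.23, edgeR adjusted p = 0.00988). The change kept its sign without any 1 library (-0.54 to -0.37) and missed the threshold without ITGA5 fl/fl replicate 3 (-0.39, adjusted p = 0.0525) and in the limma fits of log2(FPKM + 1) and log2(FPKM + 0.1) (-0.43 and -0.44, adjusted p = 0.062 and 0.0633).

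C3ar1, the receptor of C3a (chr6:122847138-122856161, minus strand), was counted at 609, 573 and 622 CPM in ITGA5 fl/fl libraries and at 666, 661 and 648 CPM in Myα5KO libraries. The Myα5KO values were all slightly above, with a log2 fold change of 0.13 (SE 0.07, 95% interval -0.01 to 0.27, adjusted p = 0.257), and passed the threshold with library totals (0.21, adjusted p = 0.0468). In ITGA5 fl/fl libraries both receptors had nearly equal counts, with a C3ar1 to C5ar1 count ratio of 1.02, 1.01 and 1.00. In Myα5KO libraries the ratio was 1.30, 1.62 and 1.58, so C3ar1 reads outnumbered C5ar1 reads in each of them. Per gene length C5ar1 stayed the higher of the receptors. The C3ar1 to C5ar1 FPKM ratio was 0.608, 0.602 and 0.598 against 0.776, 0.964 and 0.941, below 1 in every library.

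Of the marker lists, macrophage genes summed to 11360, 11054 and 11472 CPM in ITGA5 fl/fl libraries, against 9998, 10370 and 9538 CPM in the Myα5KO libraries. In that list Cd14 was called lower (4650 to 4939 CPM against 3280 to 3750 CPM), Cx3cr1 and Fcgr1 were called higher, and 5 of 8 genes were not called. Without Cd14, a split made after seeing the data, the other 7 genes summed to 6710, 6378 and 6533 CPM against 6559, 6620 and 6258 CPM, so the groups overlapped and most of the fall of the sum was Cd14. Granulocyte genes, several of them also made by immature myeloid cells, rose (7 of 9 tested), with sums of 228, 185 and 200.0 CPM in ITGA5 fl/fl libraries, against 307, 253 and 379 CPM in the Myα5KO libraries. Their defining marker Ly6g had at most 2 counts in any library. Monocyte genes summed to 230, 297 and 281 CPM against 386, 387 and 399.8 CPM, with 3 of 6 called higher. C5ar1 is found on macrophages, monocytes and granulocytes. Its change had the sign of Cd14 and the opposite sign to Cx3cr1, Fcgr1 and the monocyte and granulocyte sums. Resident macrophage genes overlapped between groups, with 0 of 6 called by edgeR and 1 at an unadjusted p under 0.05. Cardiomyocyte genes summed to 17.6 to 20.03 CPM in ITGA5 fl/fl and 11.4 to 16.0 CPM in Myα5KO libraries, with all 5 changes negative and 2 called (Tnnt2 and Actc1). B cell genes (2 of 4 called higher), dendritic cell genes (1 of 5) and endothelial genes (1 of 5) had sums that overlapped between groups. T and NK cell genes did not overlap, with sums of 3.02, 2.58 and 3.93 CPM against 5.59, 4.87 and 5.73 CPM, and 0 of 2 tested genes called by edgeR (1 at an unadjusted p under 0.05). These counts of called markers stand beside 3.56% of all genes tested called higher and 5.19% called lower. Each list sum without overlap gave p = 0.1, the smallest possible (two-sided exact permutation test, adjusted over 10 lists 0.167). The part of these shifts in the complement results was not tested.

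**Figure D2:**
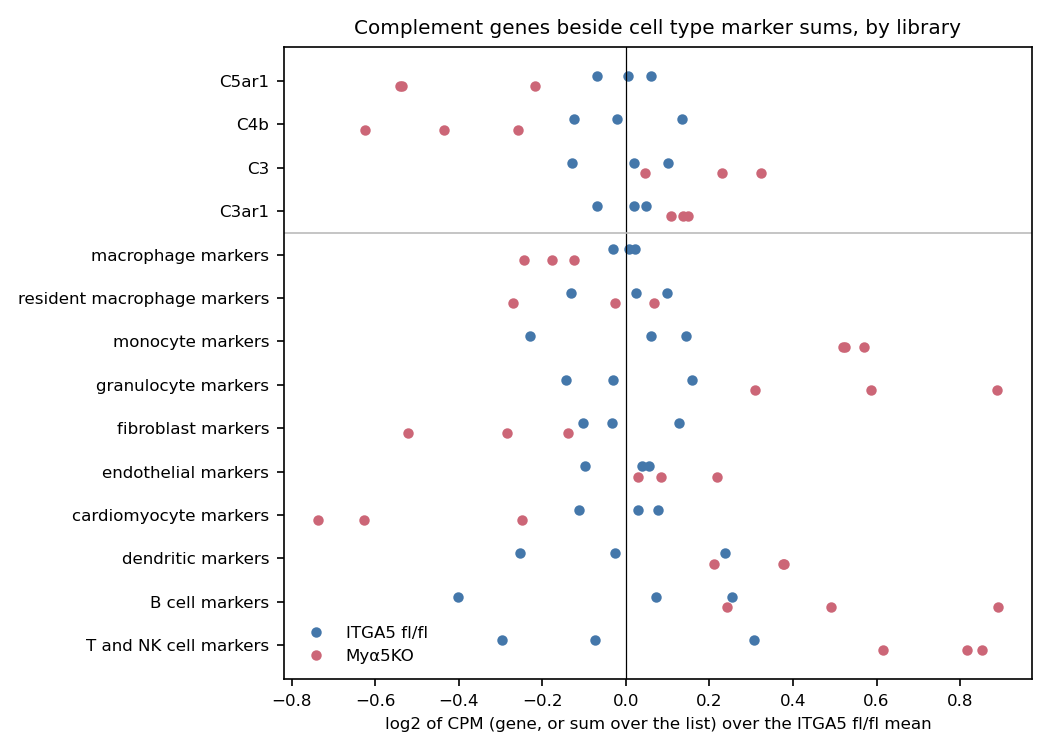
log2 of the CPM of C5ar1, C4b, C3 and C3ar1, and of the summed CPM of 10 cell type marker lists, over the ITGA5 fl/fl mean (x axis), for each ITGA5 fl/fl (blue) and Myα5KO (red) library. C5ar1, C4b and the macrophage, fibroblast and cardiomyocyte sums are lower in all Myα5KO libraries, and the monocyte, granulocyte, and T and NK cell sums are higher. The macrophage difference is mostly Cd14.

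Compared per gene length, the members spanned a wide range. Mean FPKM in ITGA5 fl/fl libraries was 2578 ± 34.5 for C1qb, 2490 ± 84.4 for C1qa and 1180 ± 28 for C1qc (SD, n = 3). Next came C5ar1 at 231 ± 11.1, Cfp at 162 ± 26.6 and C3ar1 at 139 ± 6.35 FPKM. C4b at 70.9 ± 6.20, C3 at 48.5 ± 3.77 and Cfb at 0.774 ± 0.12 FPKM closed the order. The place of Cfb is uncertain in both groups because of the sequence it shares with Gm20547. The ranges of C1qb and C1qa overlapped, although C1qb was above C1qa in each library, and those of Cfp and C3ar1 also overlapped.
In Myα5KO libraries the order was the same down to C3ar1, with means of 2496 ± 140 FPKM for C1qb, 2386 ± 228 for C1qa and 1092 ± 48.6 for C1qc. The range of C5ar1 (172 ± 23.6 FPKM) now overlapped that of Cfp (158 ± 5.39), which overlapped that of C3ar1 (152 ± 3.43 FPKM), while C5ar1 remained above C3ar1. C3 (55.8 ± 5.83) then exceeded C4b (52.4 ± 6.98) with overlapping ranges, and Cfb stayed last at 1.19 ± 0.24 FPKM.

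**Figure D3:**
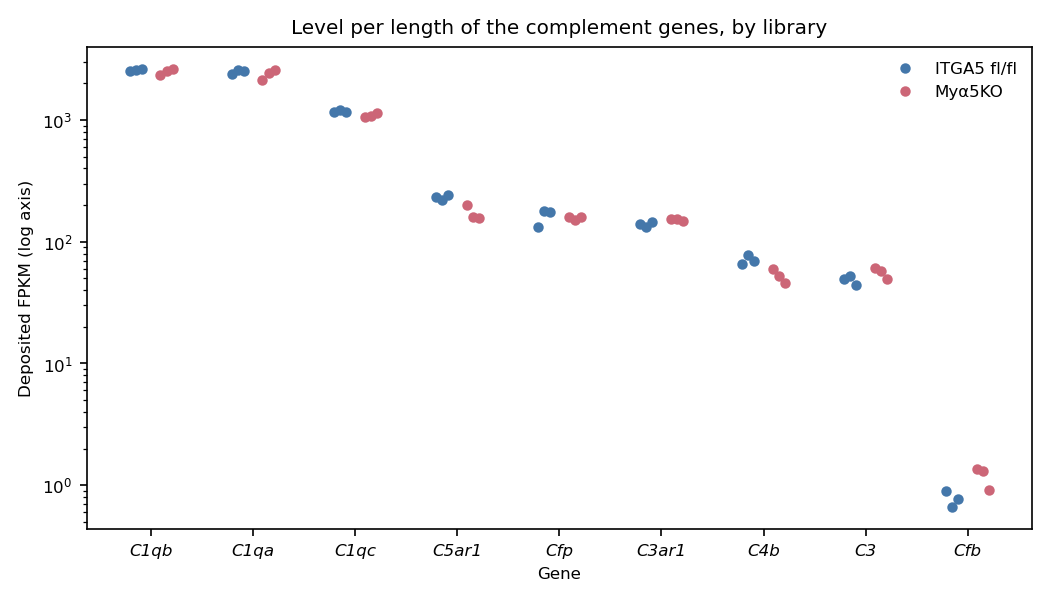
Deposited FPKM (y axis, log scale) of the 9 complement genes in each ITGA5 fl/fl (blue) and Myα5KO (red) library, ordered by the ITGA5 fl/fl mean. The C1q chains lie above all other members in every library, and C3 and C4b change places between the genotypes.

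The wider pathway was read from a list of 40 further complement genes, of which 36 had a count and 25 were tested. Of these, 2 were called higher (Fcnb and Cd55) and 2 lower (Cfd and Vsig4), again beside 3.56% and 5.19% of all genes. The median log2 fold change of the 25 was -0.15, and 6 did not overlap between groups, a share near the 28.6% of all genes tested.
Among initiators, 6 of 12 listed genes were tested and 1 was called. Fcnb, ficolin B, a lectin of the lectin pathway carried by immature and granular myeloid cells, held 14, 6 and 19 reads in the controls and 65, 28 and 57 reads in the Myα5KO libraries. Its level was 0.791 ± 0.386 against 2.65 ± 1.03 CPM, higher in each Myα5KO library (log2 fold change 1.74, SE 0.40, edgeR adjusted p = 0.016). The call was lost without ITGA5 fl/fl replicate 2 (1.38, adjusted p = 0.0618) and in the limma fits of log2(FPKM + 1) and log2(FPKM + 0.1) (0.88 and 1.61, adjusted p = 0.0773 and 0.0907). The granulocyte marker sums given above moved the same way, and their part in the Fcnb result was not tested. Fcna, ficolin A, had the highest FPKM of the 12 listed initiators. It was counted at 53.6, 68.8 and 102 CPM against 63.1, 39.2 and 45.3 CPM, with overlapping groups (log2 fold change -0.61, adjusted p = 0.0728).

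Among the other convertase genes, 1 of 3 was called. Cfd, factor D or adipsin, the protease that cleaves factor B, held 32, 33 and 24 reads in the controls and 5, 9 and 3 reads in the Myα5KO libraries. The groups stood apart, at 1.82 ± 0.404 and 0.302 ± 0.165 CPM (log2 fold change -2.56, SE 0.41, 95% interval -3.44 to -1.68, adjusted p = 0.00221), a large ratio that rests on few reads. Of the terminal genes only C6 and C8g were tested of 7 listed, and 0 were called by edgeR (0 also at an unadjusted p under 0.05). C8g, the more abundant of the pair per length, had 20 to 33 counts per library (log2 fold change -0.18, adjusted p = 0.77), and reads of its neighbor Fbxw5 on the opposite strand may be mixed with it, since the strand setting is not given in the sources used here.

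Among the 7 further receptors 1 was called, Vsig4, the macrophage receptor CRIg that binds C3b and takes up opsonized particles. It was counted at 17.6, 20.3 and 25.3 CPM in ITGA5 fl/fl libraries, against 12.1, 13.3 and 11.2 CPM in the Myα5KO libraries, lower in each of the latter (log2 fold change -0.79, SE 0.13, adjusted p = 0.00284), and was called in all 18 alternatives run. Itgb2, the β chain of complement receptors 3 and 4, had the highest FPKM of these 7 receptors. Its means were 611 ± 39.1 and 605 ± 19.1 CPM, with a log2 fold change of -0.02 (95% interval -0.17 to 0.14, adjusted p = 0.922).

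Among regulators, 7 of 11 were tested and 1 was called. Cd55, the decay-accelerating factor that dismantles C3 convertases on the cell surface, was counted at 7.31, 6.11 and 7.00 CPM in ITGA5 fl/fl libraries, against 12.8, 8.72 and 8.83 CPM in the Myα5KO libraries. Every Myα5KO library was above the ITGA5 fl/fl libraries (log2 fold change 0.58, SE 0.16, adjusted p = 0.0436), but the call held in only 10 of 18 alternatives and was lost without Myα5KO replicate 1 (0.36, adjusted p = 0.162) or without any 1 ITGA5 fl/fl library (adjusted p = 0.0687, 0.155 and 0.111).

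**Figure D4:**
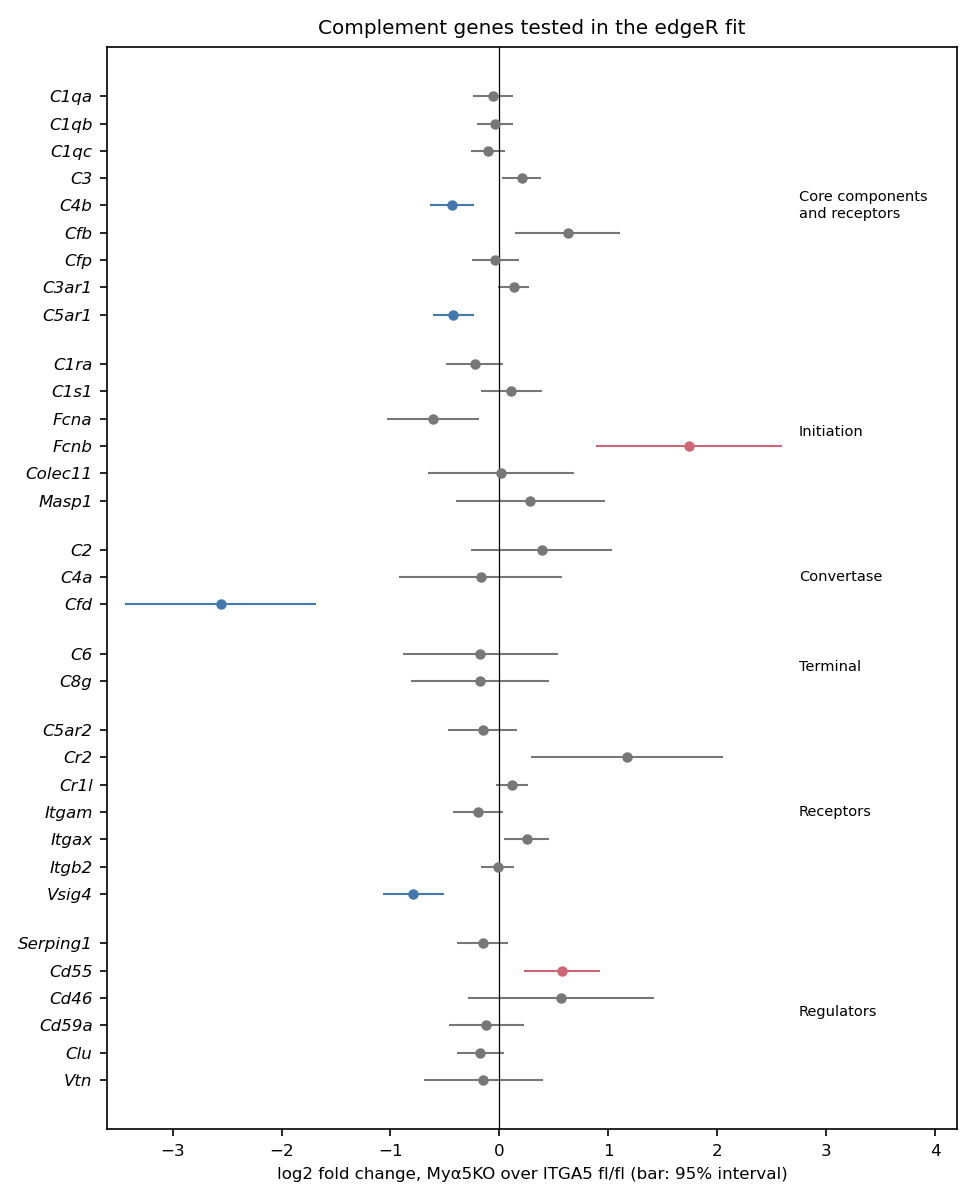
log2 fold change, Myα5KO over ITGA5 fl/fl (x axis), with its 95% interval, for the 9 members and 24 of the 25 further complement genes tested, grouped by role. Blue marks genes called lower (C4b, C5ar1, Cfd, Vsig4), red those called higher (Fcnb, Cd55) and gray those not called at an adjusted p of 0.05.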

How the data were processed

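The members and the wider and marker lists were chosen with earlier results of these data known. The authors trimmed paired-end reads, used TopHat2 for alignment against GRCm38 and HTSeq for counting (versions 2.0.9 and 0.6.1 in the submitters' processing notes). The deposited counts are whole, unnormalized reads per gene. The deposited FPKM equal count over gene length times a constant per library. Here all 14522 genes passing filterByExpr were fitted once with edgeR 4.0.16 (R 4.3.3, quasi-likelihood test, TMM, two-sided, no covariate) and adjusted by Benjamini-Hochberg. A gene is called at an adjusted p of 0.05 or less, and an interval uses the t distribution of the fit. The study's methods name DESeq2, run here (1.42.0) as an alternative beside limma (3.58.1). Sums and shares were compared by exact permutation over libraries. Named genes are all members, Itga5, and, of the wider list, called genes and the gene with the highest FPKM per role (1 regulator is not reported here). Replicates are individual hearts per the study's methods, and replicate numbers were taken from the sample titles.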

Additional observations from a re-analysis of the deposited data

How the results depend on the processing

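The number of members called lower (2) fell to 0 in both limma fits of log2(FPKM + pseudocount), to 1 at an adjusted p of 0.01 (C4b lost) and to between 1 and 2 without any 1 library (C4b lost without ITGA5 fl/fl replicate 2, C5ar1 without ITGA5 fl/fl replicate 3). The number called higher (0) was 2 with library totals in place of TMM scaling (C3 and C3ar1) and 0 to 1 without any 1 library (C3 without Myα5KO replicate 3). Library totals moved the median log2 fold change of all genes from 0.01 to 0.10 and reversed C1qa (0.025), C1qb (0.040) and Cfp (0.044). C1qa also reversed without Myα5KO replicate 1 (range over the 6 fits without 1 library -0.13 to 0.015), and Cfp without ITGA5 fl/fl replicate 2 (0.050) or 3 (0.016; range -0.17 to 0.050). In the wider list the count called higher (2) was 1 with limma-voom, 0 in both FPKM fits, 0 with at least 10 counts in every library, 0 at an adjusted p of 0.01, 4 without a count filter (Cr2 and Itgax added), 3 with library totals (Itgax added) and 0 to 2 without any 1 library. The count called lower (2) was 1 with DESeq2, which gave Cfd no adjusted p. It was also 1 with at least 10 counts in every library, where Cfd was not tested, and 3 without a count filter (Fcna added). The unfiltered edgeR fit took each gene's variance wholly from the trend over genes (unbounded prior df, against 9.502 in the main fit). Its adjusted p for Fcna (7.79e-12) therefore takes no account of the spread of Fcna itself. Fcna overlapped between groups, and its adjusted p in the main fit was 0.0728. The same limit holds for Cr2 and Itgax in the unfiltered fit. Without any 1 library the count called lower was 2 to 4, with Fcna and Itgam added without ITGA5 fl/fl replicate 1. Fcna was among those added without Myα5KO replicate 1. Libraries of the same replicate number showed no sign of pairing (correlations of deviations 0.05, -0.06 and 0.04), although such correlations cannot exclude it. The replicate block left 2 members lower and 0 higher, with 1181 calls among all genes in place of 1271. Other alternatives changed no direction and no call of a member. With 3 libraries a group, exact tests cannot go below p = 0.1, and Cfb, Cfd and Fcnb rest on under 100 counts per library.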
